A study of Mus musculus with 26 samples.

Results

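The difference in gene expression between cells with ΔZF1 and with WT CTCF was measured in 2 states of one mouse cell line, as embryonic stem cells (ESCs) and after conversion toward neural progenitors (NPCs), and the genes described here are those for which that difference changed between the states. CTCF is a zinc finger protein that binds DNA, halts the cohesin complex as it extrudes chromatin loops, and so sets the ends of many loops and of topologically associating domains. Its first zinc finger (ZF1) lies within a region of the protein that also binds RNA, and ΔZF1 carries a deletion within this finger. During the exit from naive pluripotency, the transcription factor network of ESCs is dismantled, FGF signalling through ERK is switched on, and cells either take up a neural fate or, where signals of the Nodal and FGF families persist, mesodermal and endodermal fates.

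All 8 libraries of the CTCF rescue lines were used, 2 for each protein (WT or ΔZF1) in each cell state, out of 26 RNA-seq libraries in the series. The lines derive from E14Tga2 (E14) mouse ESCs, and cells of all 4 groups carry mAID-eGFP on both copies of endogenous Ctcf, OsTIR1(F74G) on 1 copy of Rosa26, and an mCherry reporter at Hb9/Mnx1 on both copies. WT or ΔZF1 CTCF with a Flag-Halo tag was placed at the Tigre locus under a doxycycline-inducible promoter. For 24 h, cells of all 4 groups received 5-Ph-IAA (1 µM), which degrades the tagged endogenous protein, together with doxycycline (1 µg/ml), which induces the rescue protein. ESCs were kept in serum-containing N2B27 medium with leukemia inhibitory factor and inhibitors of GSK3 (CHIR99021) and of MEK (PD0325901), whereas NPCs were collected after 2 days in N2B27 on laminin, so that the medium changed with the cell state. Each rescue protein was expressed in a single clone, so that the clone and the protein cannot be told apart, and the labels do not say whether the libraries of a group came from separate cultures, so that p-values measure the spread between these libraries.

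The test was an interaction, (NPC-ΔZF1 minus NPC-WT) minus (ESC-ΔZF1 minus ESC-WT) on the log2 scale. A positive interaction means that ΔZF1 raised the gene more, or lowered it less, in NPCs than in ESCs. The same number is the difference between the ΔZF1 line and the WT line in how far the gene moved from ESCs to NPCs. The authors deposited whole-number counts for each gene, and these were fitted here in 1 edgeR model of the 8 libraries and tested by its quasi-likelihood F statistic. Normalized counts are counts scaled to a common library size. A gene was called at a Benjamini-Hochberg adjusted p of at most 0.05 over all genes tested and a log2 change of at least 0.5 in either direction. Bulk RNA-seq cannot tell fewer cells of a type from less RNA per cell.

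Between 6425179 and 28730435 reads were counted per library, with the lowest total in ESC-WT replicate 1. The NPC-WT libraries stood apart from each other. Their counts differed by 63.1 times the sampling noise per gene (chi-square divided by its degrees of freedom), against 2.92 to 6.37 times in the other groups, and mitochondrial genes took 0.580% of the counts in NPC-WT replicate 2 and 1.25% to 2.06% in the other 7 libraries. The targeted gene Ctcf, whose counts do not separate the endogenous from the rescue transcript, gave 9914 and 10179 in ESC-WT, 15168 and 14659.6 in ESC-ΔZF1, 8368 and 7913 in NPC-WT and 14077 and 13848 in NPC-ΔZF1. It was higher with ΔZF1 in both states, by 0.57 on the log2 scale in ESCs and 0.78 in NPCs (adjusted p = 0.0161 and 0.000666), and the interaction was 0.21 (adjusted p = 0.422). The amount of CTCF transcript thus moved with the ΔZF1 line in both states, and its part in the results was not tested.

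The labels of the cell states were checked against markers. The summed level of 18 naive pluripotency genes lay between 7040 and 7940 CPM (counts scaled to a fixed library total) in ESC libraries and between 863 and 1096 in NPC libraries. Sox1, which marks early neural progenitors, had normalized counts of 119 and 97.8 in ESC-WT, 214 and 193 in ESC-ΔZF1, 296 and 388 in NPC-WT and 691 and 713 in NPC-ΔZF1, and was higher in each NPC library than in each ESC library. Pax6, a later neural marker, stayed low, with 24.3 and 55.2 in ESC-WT, 35.0 and 32.2 in ESC-ΔZF1, 40.4 and 22.7 in NPC-WT and 61.5 and 72.7 in NPC-ΔZF1, and its levels in the 2 states overlapped. Over the whole list of neural progenitor genes, the summed level was lower in NPC libraries, at 288 to 399.6 CPM, than in ESC libraries, at 453 to 505 CPM. The early neuron list was lower as well, at 263 to 278 CPM against 366 to 424 CPM. As sums, the neural lists thus did not mark the NPC libraries as the naive list marked the ESC libraries. Such sums lean on abundant genes. Sox2, on the progenitor list, had mean normalized counts of 4485 in ESC-WT and 497 in NPC-WT. Stmn2, on the early neuron list, had means of 3732 and 637. The lists were not summed without these genes. The NPC libraries also held transcripts of other lineages. Krt8, a keratin of simple epithelia, had counts of 914 and 512 in ESC-WT, 506 and 709.9 in ESC-ΔZF1, 17056 and 24448 in NPC-WT and 6253 and 5876 in NPC-ΔZF1.

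The interaction was called for 449 of 16641 genes (2.7%). ΔZF1 acted more positively in NPCs for 264 of them (1.59% of genes tested) and more negatively for 185 (1.11%). With DESeq2, 318 were higher and 362 lower, so that the larger side was the lower one. The effect of ΔZF1 was called in NPCs and not in ESCs for 347 of the 449, in ESCs and not in NPCs for 50, in both states with opposite signs for 20, in both with the same sign but unequal size for 10, and in neither state for 22. The median interaction over all genes was 0.01 on the log2 scale.

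**Figure D1:**
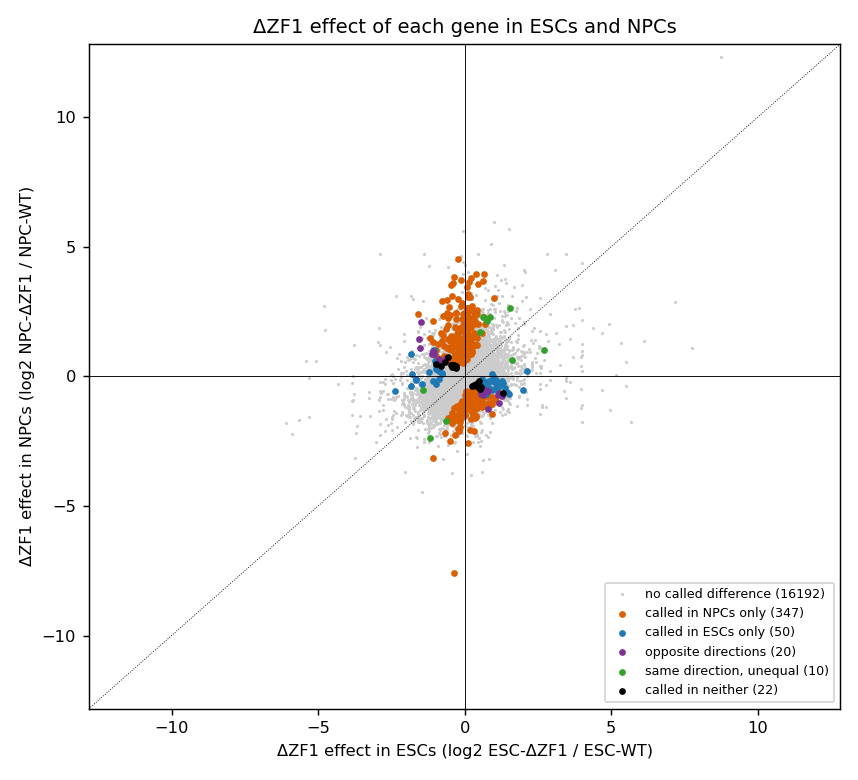
Each point is a gene, placed by its ΔZF1 effect (log2 ΔZF1 / WT) in ESCs on the horizontal axis and in NPCs on the vertical axis, with the 449 genes with a called interaction in colour and the other genes tested in grey. The 347 genes called in NPCs only spread along the vertical axis, and the 20 genes with opposite effects lie to the upper left and lower right of the origin. The dotted line marks equal effects.

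Most genes called in one state and not in the other had no called difference between the states. In the joint fit of the 8 libraries, the effect of ΔZF1 was called for 2936 genes in NPCs (17.6%) and for 601 genes in ESCs (3.61%). That order was not stable, because fits on the libraries of one cell type called 1222 genes in NPCs and 1601 in ESCs. Without chromosome 11, the joint fit called 249 genes in ESCs. Of the 2622 genes called in NPCs and not in ESCs, 347 (13.2%) had a called interaction, and of the 287 called in ESCs and not in NPCs, 50 did (17.4%). Among the 294 genes called in both states with the same sign, 10 had a called interaction (3.40%). Some of the effects that were not called could be bounded as small. For 121 of the 347 genes called in NPCs only, the 95% interval of the effect in ESCs lay wholly between -0.5 and 0.5, and for 13 of the 50 genes called in ESCs only, the interval in NPCs did.

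The 2 libraries of NPC-WT set much of the spread in this model. Without NPC-WT replicate 1, 4673 genes had a called interaction, and without NPC-WT replicate 2, 1666 did. Without any 1 of the other 6 libraries, between 54 and 87 did. All 449 genes kept the sign of the interaction in each of these 8 fits. The genes were chosen by their interaction in these libraries, and each fit drops only 1 of them, so kept signs are no independent evidence. The call itself was kept in all 8 fits by 42 of the 347 genes called in NPCs only, by 3 of the 20 with opposite effects (Cpn1, St6gal1 and Cldn4) and by none of the 50 called in ESCs only. At an unadjusted p below 0.05, between 320 and 514 genes had an effect in ESCs only in these fits.

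The promoters of 6 genes described below are shown, 3 whose rise with ΔZF1 was called in NPCs only and 3 with opposite effects. They hold 250 bases before and 50 after a RefSeq start on GRCm38.p6, 5′ to 3′ on the strand of the gene. That start can differ from the gene positions given below. The window of Cubn, for example, lies wholly before the start given for it there. Capitals mark AGATAA or TGATAA, the letters that GATA factors favour, and CCCTC, a part of the CTCF motif, searched on both strands. CCCTC cannot share bases with the GATA letters, but adjoining copies of CCCTC can overlap.
Cubn, chr2:13491827-13492126, minus strand: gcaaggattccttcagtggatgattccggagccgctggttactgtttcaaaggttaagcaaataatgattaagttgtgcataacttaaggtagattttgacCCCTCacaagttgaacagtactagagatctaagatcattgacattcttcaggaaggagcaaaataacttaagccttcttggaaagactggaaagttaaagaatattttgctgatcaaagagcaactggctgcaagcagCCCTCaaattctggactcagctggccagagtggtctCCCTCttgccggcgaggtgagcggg
Dpp4, chr2:62412182-62412481, minus strand: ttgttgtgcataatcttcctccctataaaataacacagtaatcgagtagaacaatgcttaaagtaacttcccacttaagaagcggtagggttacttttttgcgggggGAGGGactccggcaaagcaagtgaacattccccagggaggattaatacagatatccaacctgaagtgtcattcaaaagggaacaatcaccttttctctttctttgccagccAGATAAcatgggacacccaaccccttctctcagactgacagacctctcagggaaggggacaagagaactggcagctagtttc
Tfec, chr6:16898392-16898691, minus strand: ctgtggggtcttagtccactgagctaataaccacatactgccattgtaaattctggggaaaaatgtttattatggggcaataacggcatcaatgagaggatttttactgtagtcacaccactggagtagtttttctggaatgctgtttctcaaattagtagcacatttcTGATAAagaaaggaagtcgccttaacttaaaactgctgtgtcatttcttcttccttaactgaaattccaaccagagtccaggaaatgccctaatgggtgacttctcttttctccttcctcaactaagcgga
Cpn1, chr19:43986471-43986770, minus strand: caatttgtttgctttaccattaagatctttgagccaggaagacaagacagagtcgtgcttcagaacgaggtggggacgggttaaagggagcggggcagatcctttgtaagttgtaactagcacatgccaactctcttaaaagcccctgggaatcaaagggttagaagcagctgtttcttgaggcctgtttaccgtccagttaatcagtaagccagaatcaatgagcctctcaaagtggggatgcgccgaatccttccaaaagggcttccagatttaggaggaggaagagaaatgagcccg
Cldn4, chr5:134946885-134947184, minus strand: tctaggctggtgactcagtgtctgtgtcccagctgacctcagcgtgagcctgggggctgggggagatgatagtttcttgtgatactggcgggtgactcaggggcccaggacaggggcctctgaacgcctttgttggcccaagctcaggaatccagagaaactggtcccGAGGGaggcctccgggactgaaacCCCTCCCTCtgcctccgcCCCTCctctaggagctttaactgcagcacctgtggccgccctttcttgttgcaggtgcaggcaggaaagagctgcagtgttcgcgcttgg
Myl9, chr2:156775214-156775513, plus strand: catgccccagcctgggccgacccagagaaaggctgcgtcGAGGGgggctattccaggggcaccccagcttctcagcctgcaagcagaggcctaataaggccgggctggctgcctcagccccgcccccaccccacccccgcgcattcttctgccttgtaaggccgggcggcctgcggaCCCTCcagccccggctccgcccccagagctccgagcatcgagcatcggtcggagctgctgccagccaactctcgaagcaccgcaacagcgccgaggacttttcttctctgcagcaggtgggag
The GATA letters occurred at 1 place each in Dpp4 and Tfec, and CCCTC at 4 places in Cldn4, 3 in Cubn, 2 in Myl9 and 1 in Dpp4, and Cpn1 held neither. Of the genes tested, 11703 had a window in this table, of which 12.2% held the GATA letters and 79.0% CCCTC. The shares were 20.3% and 85.6% of the 202 genes with a higher interaction in NPCs, and 6.21% and 89.7% of the 145 with a lower one. A match is a description of these letters and not a binding site.

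Genes of primitive and visceral endoderm, the extraembryonic lineage that lines the yolk sac and is specified by GATA factors and FGF, held the largest share of called interactions among the 25 gene lists examined. Of the 36 genes of this list, 35 were tested, and 20 had a called interaction, all higher in NPCs, with a median interaction of 2.32 on the log2 scale over the list. Relative to WT, 29 rose with ΔZF1 in NPCs and 5 rose in ESCs, and none fell in either state. Of all genes tested, 17.6% had an effect called in NPCs and 3.61% in ESCs, in either direction. In ESCs the median effect over the list was 0.02, and in NPCs it was 2.45. The list was drawn up with results of these libraries known, so that this count is no independent evidence of its direction. Without single libraries, between 10 and 27 of the 35 genes had a called interaction.

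The upstream transcription factors of the lineage responded in NPCs. Gata6, which initiates the primitive endoderm program (chromosome 18, 11052064 to 11085635), had normalized counts of 51.2 and 32.2 in ESC-WT, 32.4 and 51.2 in ESC-ΔZF1, 141 and 183 in NPC-WT and 1451 and 1333 in NPC-ΔZF1. The ESC libraries overlapped and every NPC-ΔZF1 library lay above both NPC-WT libraries, and the interaction was 3.00 (standard error 0.39, edgeR adjusted p = 0.00572). Gata4 (2.73), Sox17 (3.06), Foxa2 (3.21) and Hnf4a (3.31) had interactions of like size. The effects of these factors in ESCs were not called, and in NPCs each was.

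The list also holds receptors and secreted proteins. Cubn, which encodes the endocytic receptor cubilin (chromosome 2, 13276338 to 13491813), reached 1667 and 1284 in NPC-WT and 16932 and 19189 in NPC-ΔZF1, after 555 and 167 in ESC-WT and 154 and 353 in ESC-ΔZF1. Its ESC libraries differed widely within groups, and the interaction was 4.01 (standard error 0.66, adjusted p = 0.0141). Dab2, the adaptor with which cubilin is taken up, had 1392 and 1025 in NPC-WT and 9644 and 9041 in NPC-ΔZF1 and an interaction of 3.53. Apob, the structural protein of lipoproteins (chromosome 12, 7977648 to 8016835), had 47.8 and 40.9 in NPC-WT and 573 and 683 in NPC-ΔZF1, with an interaction of 3.59 (adjusted p = 0.00198). Pdgfra, the receptor by which primitive endoderm cells receive PDGF, had 238 and 308 in NPC-WT and 1664 and 1734 in NPC-ΔZF1 and an interaction of 2.58.

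The basement membrane that this endoderm lays down consists of laminin and type IV collagen. Lama1, the laminin α chain of this membrane (chromosome 17, 67697259 to 67822647), had normalized counts of 2763 and 2612 in ESC-WT, 2186 and 2416 in ESC-ΔZF1, 2868 and 3547 in NPC-WT and 24865 and 25987 in NPC-ΔZF1. With ΔZF1 it rose in NPCs by 2.99 on the log2 scale, its effect in ESCs was -0.22 with a 95% interval from -0.49 to 0.05, and the interaction of 3.21 (standard error 0.17, adjusted p = 9.09e-05) was called in each of the 8 fits without 1 library. The partner chains Lamb1 (1.68) and Lamc1 (1.17) and the collagens Col4a1 (2.08) and Col4a2 (1.76) had smaller interactions. Of the collagen and basement membrane genes as a whole, 6 of 34 were higher and 1 was lower, and the median over that list was -0.26, opposite to the direction of the called genes. Of the list, 6 genes rose with ΔZF1 in NPCs and 9 fell.

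**Figure D2:**
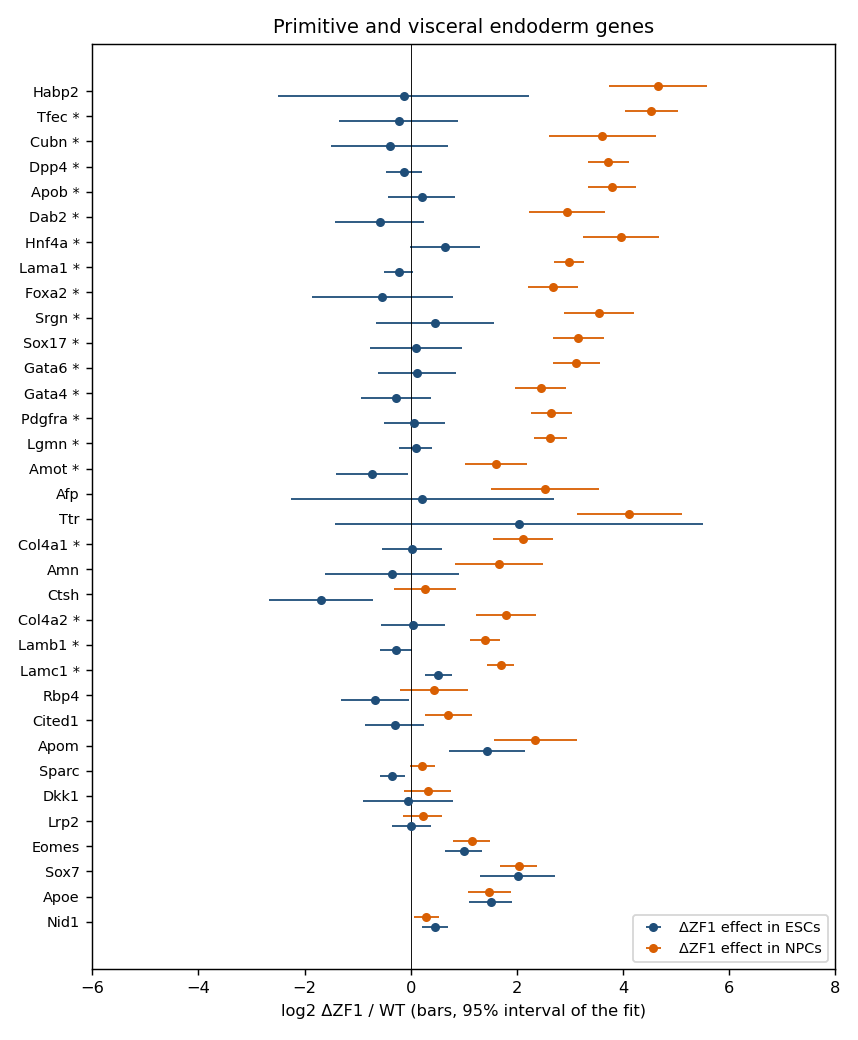
ΔZF1 effect (log2 ΔZF1 / WT) of 34 of the 35 tested genes of the primitive and visceral endoderm list in ESCs (blue) and NPCs (orange), with 95% intervals of the fit, ordered by the interaction, and with a star at the 19 of them with a called interaction. The NPC effects of the starred genes lie between 1.40 (Lamb1) and 4.53 (Tfec), while their ESC effects lie between -0.73 (Amot) and 0.65 (Hnf4a).

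The 5 genes of the list that rose in ESCs as well were Apoe, Apom, Eomes, Sox7 and Lamc1. Apoe, a lipid carrier, had normalized counts of 819 and 753 in ESC-WT, 2279.5 and 2169 in ESC-ΔZF1, 1223 and 1928 in NPC-WT and 4346 and 4428 in NPC-ΔZF1. The ΔZF1 effect was 1.50 in ESCs and 1.48 in NPCs, an interaction of -0.02 (standard error 0.25, adjusted p = 0.979). Eomes (0.15), Sox7 (0.02) and Apom (0.91) likewise had no called interaction. Summed over the endoderm list, NPC-ΔZF1 libraries held between 12240 and 12622 CPM and NPC-WT libraries between 3696 and 4230. NPCs of E14 cells labelled WT, from a separate set of libraries, held between 3253 and 3926. These are cells of the parental line, without tagged Ctcf or a rescue gene, and no 5-Ph-IAA or doxycycline is listed for them. ESC-WT and ESC-ΔZF1 held between 1501 and 1762 and between 1859 and 1915.

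The largest positive interactions among the genes called in NPCs only also included Tfec, Klb and Dpp4, of which Tfec and Dpp4 are on the endoderm list. Tfec, a transcription factor of the MiT family (chromosome 6, 16833373 to 16898441), had the largest positive interaction of the genes named by rule, with counts of 5.39 and 9.2 in ESC-WT, 7.77 and 5.96 in ESC-ΔZF1, 15.7 and 18.2 in NPC-WT and 412 and 362 in NPC-ΔZF1. Its interaction was 4.76 (standard error 0.62, adjusted p = 0.00565), and its counts in ESCs were near the limit of detection. Klb, the co-receptor β-Klotho of the endocrine FGFs (chromosome 5, 65348314 to 65384007), had 35.1 and 10.6 in NPC-WT and 311 and 286 in NPC-ΔZF1 and an interaction of 4.01 (adjusted p = 0.00889). Dpp4, a peptidase of the cell surface (chromosome 2, 62330073 to 62412231), had 685 and 827 in ESC-WT, 692 and 709 in ESC-ΔZF1, 124 and 87.9 in NPC-WT and 1456 and 1426 in NPC-ΔZF1. In the WT line the NPC libraries lay below the ESC libraries, in the ΔZF1 line above them, and the interaction was 3.85 ± 0.23 (standard error, adjusted p = 0.000101).

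Signals of the FGF and Nodal families and their feedback inhibitors included further genes with a positive interaction. Of 22 genes of FGF and ERK feedback tested, 8 had a higher interaction and none a lower one (median 0.99), and without single libraries between 3 and 17 did. Fgf15, a secreted FGF (chromosome 7, 144896531 to 144900953), had normalized counts of 67.4 and 55.2 in ESC-WT, 79.0 and 78.6 in ESC-ΔZF1, 4.48 and 4.55 in NPC-WT and 72.1 and 70.7 in NPC-ΔZF1. Its level in NPC-ΔZF1 lay within the range of the ESC libraries, with an interaction of 3.55 (adjusted p = 0.00344). In NPC-WT it was near the limit of detection. Among the inhibitors that ERK activity induces, Spry4 had 1337 and 1480.5 in ESC-WT, 1544 and 1444 in ESC-ΔZF1, 168 and 253 in NPC-WT and 1089 and 1041 in NPC-ΔZF1, an interaction of 2.29 (adjusted p = 0.00213), and Il17rd had 553 and 637 in NPC-WT and 2373 and 2396 in NPC-ΔZF1, an interaction of 2.02 (adjusted p = 0.000376). Spry2 (1.23), Fgf17 (1.62), Etv5 (0.98), Etv1 (1.43, with a smaller rise in ESCs) and Dusp4 (1.50) were called as well. Not all targets of ERK rose. Dusp5 fell with ΔZF1 in NPCs by 0.94 on the log2 scale (adjusted p = 0.00117), and Fos fell by 1.18 (adjusted p = 0.0107). In E14 WT cells, Fgf15, Spry4 and Il17rd rose from ESCs to NPCs, by 2.05, 1.04 and 1.02 on the log2 scale. In the WT rescue line, all of these lay lower in NPCs than in ESCs. The part of the WT line in their interactions was not tested.

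Of 15 genes of Nodal and Lefty signalling tested, 4 had a higher and 1 a lower interaction, and the median over the list was near 0 (-0.00268). Lefty1, a secreted inhibitor and target of Nodal (chromosome 1, 180935022 to 180938400), had normalized counts of 162 and 222 in ESC-WT, 194 and 244 in ESC-ΔZF1, 89.7 and 118 in NPC-WT and 1262 and 1308 in NPC-ΔZF1. Its interaction was 3.50 (standard error 0.28, adjusted p = 0.000401). In E14 WT cells, Lefty1 rose from ESCs to NPCs by 2.54 on the log2 scale, and Lefty2 fell by 1.15. In the WT rescue line, the NPC libraries of Lefty1 lay below its ESC libraries. Lefty2 (chromosome 1, 180893108 to 180899103), a paralog of Lefty1, had 868 and 939 in ESC-WT, 741 and 753 in ESC-ΔZF1, 41.9 and 86.4 in NPC-WT and 320.1 and 323 in NPC-ΔZF1, so that NPC-ΔZF1 lay between NPC-WT and both ESC groups (interaction 2.70, adjusted p = 0.0036). Nodal itself (1.07) also had an effect called in NPCs and not in ESCs. Smad7, an intracellular inhibitor of the pathway, was the lower gene, with 2801 and 2969 in ESC-WT, 4284 and 4031 in ESC-ΔZF1, 1169 and 1564 in NPC-WT and 963 and 963 in NPC-ΔZF1, an interaction of -1.03 (adjusted p = 0.0224). Its effect was called in neither state.

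Genes of pluripotency and of early neural cells held called interactions in smaller shares than the endoderm and FGF lists. The shares were 17.6% of core and formative, 5.56% of naive, 6.67% of neural progenitor and 7.69% of early neuron genes, against 2.7% of all genes tested. Of 17 core and formative pluripotency genes, 3 were higher, Lef1 and Sox2 among them, and of 18 naive genes, 1 was lower (Tfcp2l1, -0.67). Sox2 (chromosome 3, 34650405 to 34652461), shared by pluripotent and neural cells, was the only gene called of 15 neural progenitor genes, with 448 and 547 in NPC-WT and 833 and 913 in NPC-ΔZF1 and an interaction of 0.90 (adjusted p = 0.0253). Of 13 early neuron genes, Stmn2 was called (1.12). Sox1 rose with ΔZF1 in both states by 0.94 and 1.05 on the log2 scale, and its interaction was 0.11 (adjusted p = 0.853). Of 40 axon guidance genes, 4 were higher, among them the Eph receptors Epha2 (1.89), Epha1 (1.40) and Epha4 (1.21), and 2 were lower, Sema3b (-1.89) and Sema6a (-1.49).

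The genes with a negative interaction called in NPCs only were led by H19, the maternally expressed imprinted RNA that shares enhancers with Igf2 (chromosome 7, 142575529 to 142578143). It had normalized counts of 1628 and 795 in ESC-WT, 730.5 and 1107 in ESC-ΔZF1, 39565 and 46842 in NPC-WT and 222 and 232 in NPC-ΔZF1. In the WT line the NPC libraries lay far above the ESC libraries, and in the ΔZF1 line they lay below them. The interaction was -7.20 (standard error 0.44, adjusted p = 0.000101), the largest of all 449 in size, and was called in each fit without 1 library. Its neighbour Igf2, a growth factor expressed from the paternal copy (chromosome 7, 142650766 to 142666816), had 173 and 86.3 in ESC-WT, 111 and 135 in ESC-ΔZF1, 4840.4 and 6531 in NPC-WT and 2368 and 2123 in NPC-ΔZF1. Igf2 fell with ΔZF1 in NPCs by 1.34 on the log2 scale (adjusted p = 0.00241), but the interaction of -1.39 missed the threshold (adjusted p = 0.0838).

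Of 42 imprinted genes tested, 3 had a called interaction. Besides H19, Phlda2, a maternally expressed gene that limits placental growth, was lower, with 909 and 1031 in NPC-WT and 514 and 492 in NPC-ΔZF1 and an interaction of -1.24 (adjusted p = 0.0129). Grb10, an adaptor of growth factor receptors on chromosome 11, was higher, with 1582 and 1497 in ESC-WT, 1544 and 1640.2 in ESC-ΔZF1, 4666 and 4559 in NPC-WT and 8272 and 8341 in NPC-ΔZF1, an interaction of 0.80 (adjusted p = 0.0156). Podxl, a sialomucin of the cell surface, had 917 and 594 in ESC-WT, 566 and 653 in ESC-ΔZF1, 7213 and 7422 in NPC-WT and 10004 and 9408 in NPC-ΔZF1, and its interaction of 0.69 was not called (adjusted p = 0.172).

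The called genes of surface ectoderm and trophoblast were lower, not higher, in the interaction. Of 26 genes of surface ectoderm and the neural border, 4 had a lower interaction and none a higher one (median -0.62), and 14 fell with ΔZF1 in NPCs while 2 rose. Over all genes tested, 17.6% had an effect called in NPCs in either direction. Without single libraries between 0 and 16 of the 26 were called, and DESeq2 called 9. Gata2 (chromosome 6, 88193891 to 88207032), a GATA factor of non-neural ectoderm and trophoblast, had 278 and 217 in ESC-WT, 228 and 233 in ESC-ΔZF1, 4011 and 4883 in NPC-WT and 1981 and 1872 in NPC-ΔZF1, an interaction of -1.13 (adjusted p = 0.0211). The homeobox factor Msx2 (-1.19), the epithelial factor Grhl3 (-1.04) and E-cadherin, Cdh1 (-0.70), completed the 4. Dlx3, a homeobox factor of the same tissue, had 121 and 70.2 in ESC-WT, 38.9 and 56.0 in ESC-ΔZF1, 905 and 952 in NPC-WT and 344 and 302 in NPC-ΔZF1, and its interaction of -0.61 was not called (adjusted p = 0.377). Of 13 trophoblast genes, 2 were lower, Rhox6 (-1.48) and Ets2 (-0.89, called in ESCs only), and 7 fell in NPCs. The summed level of the surface ectoderm list was between 5113 and 6456 CPM in NPC-WT, between 2626 and 2694 in NPC-ΔZF1 and between 1367 and 1447 in E14 WT NPCs. For the trophoblast list it was between 21051 and 27918 in NPC-WT, between 14181 and 14803 in NPC-ΔZF1 and between 6558 and 7584 in E14 WT NPCs, with Peg10 as its most abundant gene. The part that cells of these lineages played in the called interactions was not tested.

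Other genes with a negative interaction called in NPCs only included a lamin, a keratin and a myosin chain. B3gnt3, a glycosyltransferase (chromosome 8, 71690756 to 71701789), had 108 and 101 in ESC-WT, 93.3 and 129.8 in ESC-ΔZF1, 32.1 and 51.5 in NPC-WT and 4.35 and 9.08 in NPC-ΔZF1, an interaction of -2.67 (adjusted p = 0.0259). Lmna, which encodes lamin A and C (chromosome 3, 88480147 to 88509956), had 887 and 1652 in NPC-WT and 432 and 392 in NPC-ΔZF1, with wide spread in NPC-WT, and an interaction of -1.99 (adjusted p = 0.0241). The keratin Krt42 (-2.24) and the embryonic myosin light chain Myl4 (-1.98), both on chromosome 11, fell as well. Epdr1 had 127 and 177 in ESC-WT, 62.2 and 84.6 in ESC-ΔZF1, 143 and 136 in NPC-WT and 11.8 and 20.1 in NPC-ΔZF1, and its libraries did not overlap in either state. Its effect was -3.13 in NPCs and -1.08 in ESCs, the second just short of a call (adjusted p = 0.0553), so that its interaction of -2.05 was a difference in size. Of the 20 immediate early genes, which mark recent signalling, 3 were lower (Dusp1, Btg2 and Rhob), none was higher, and 9 fell in NPCs. Over all genes tested, 17.6% were called in NPCs in either direction.

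Chromosome 11, with 1326 genes tested, was shifted down in the ΔZF1 line, with a median effect of -0.46 on the log2 scale in ESCs and -0.56 in NPCs. The shift was nearly equal in the 2 states, with a median interaction of -0.10, and the other autosomes lay between -0.09 and 0.14. Of its genes, 5 had a higher and 23 a lower interaction (2.11%, against 2.7% of all genes tested). Of these 28, 26 were called in NPCs only, as were 77.3% of all 449. Of the 20 genes with opposite effects and the 50 called in ESCs only, none lay on chromosome 11, which held 1326 of the 16641 genes tested. On the X chromosome, 24 of 577 genes tested had a higher and 6 a lower interaction (5.20%), with a median of 0.22. With chromosome 11 left out before normalization, 405 genes had a called interaction, but 9 in place of 20 had opposite effects.

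Among the 20 genes with opposite effects, 10 fell with ΔZF1 in ESCs and rose in NPCs, and 10 did the reverse. The libraries of WT and ΔZF1 did not overlap in either state for any of the 20. Both effects were part of the rule that chose these genes, so the absence of overlap is no further evidence for them. Of all genes tested, 3.61% were called in ESCs and 17.6% in NPCs. Among the 449 genes with a called interaction, the libraries did not overlap for 341 in ESCs and 444 in NPCs. The share without overlap over all genes tested is not given here. Cpn1, the catalytic subunit of carboxypeptidase N (chromosome 19, 43956307 to 43986556), had normalized counts of 208 and 227 in ESC-WT, 66.1 and 81.0 in ESC-ΔZF1, 57.5 and 90.9 in NPC-WT and 198 and 187 in NPC-ΔZF1. With ΔZF1 it was low in ESCs and high in NPCs, and with WT the order was the reverse. ΔZF1 lowered it by 1.57 on the log2 scale in ESCs (adjusted p = 0.0129) and raised it by 1.43 in NPCs (adjusted p = 0.00216), an interaction of 2.99 (standard error 0.32, adjusted p = 0.00237).

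St6gal1, a sialyltransferase (chromosome 16, 23224740 to 23360350), had 140.2 and 123 in ESC-WT, 60.9 and 59.6 in ESC-ΔZF1, 219 and 243 in NPC-WT and 429.5 and 416 in NPC-ΔZF1, with effects of -1.11 in ESCs and 0.88 in NPCs (interaction 1.99, adjusted p = 0.00344). Lef1, the transcription factor that works with β-catenin at Wnt targets (chromosome 3, 131110471 to 131224356), had 51.2 and 54.1 in ESC-WT, 24.6 and 26.2 in ESC-ΔZF1, 123 and 119.7 in NPC-WT and 230.0 and 213 in NPC-ΔZF1, and its effects were -1.06 and 0.86 (interaction 1.92, adjusted p = 0.0103). Both genes were higher in NPC-WT than in ESC-WT libraries, and the gap was wider in the ΔZF1 line. Ak4, a mitochondrial adenylate kinase (chromosome 4, 101419277 to 101466995), was instead lower in NPCs than in ESCs, with 4901 and 4898 in ESC-WT, 2811 and 2974 in ESC-ΔZF1, 477 and 576 in NPC-WT and 750.3 and 735 in NPC-ΔZF1, and the gap was narrower in the ΔZF1 line (interaction 1.26, adjusted p = 0.00486). Clgn (1.52), a chaperone, Pls1 (1.38), an actin-bundling protein, and Rbm47 (1.32), an RNA-binding protein, showed the same order of signs, as did Mobp, Abcc2 and Piwil4, which were below 100 normalized counts on average.

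The genes that rose in ESCs and fell in NPCs were led by Cldn4, Myl9 and Tgm2. Cldn4, a claudin of tight junctions (chromosome 5, 134945119 to 134946934), had normalized counts of 439 and 334 in ESC-WT, 690.3 and 631 in ESC-ΔZF1, 2578 and 3588 in NPC-WT and 1336 and 1249 in NPC-ΔZF1, with effects of 0.80 in ESCs and -1.25 in NPCs and an interaction of -2.05 (standard error 0.25, adjusted p = 0.00425). Its paralog Cldn3 had an interaction of -1.98 with a call in neither state. Myl9, a regulatory light chain of myosin (chromosome 2, 156775420 to 156781658), had 45.8 and 48.3 in ESC-WT, 114 and 117 in ESC-ΔZF1, 279 and 241 in NPC-WT and 147 and 164 in NPC-ΔZF1 (interaction -2.03, adjusted p = 0.00535). Tgm2, a transglutaminase (chromosome 2, 158116402 to 158146436), had 154 and 198 in ESC-WT, 439 and 354 in ESC-ΔZF1, 132 and 164 in NPC-WT and 90.8 and 88.2 in NPC-ΔZF1 (interaction -1.85, adjusted p = 0.0103). For these genes every ESC-ΔZF1 library lay above both ESC-WT libraries and every NPC-ΔZF1 library below both NPC-WT libraries.

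Dact1, an antagonist of Dishevelled in Wnt signalling (chromosome 12, 71309884 to 71320107), had 18.9 and 32.2 in ESC-WT, 60.9 and 63.1 in ESC-ΔZF1, 406 and 358 in NPC-WT and 259.8 and 234 in NPC-ΔZF1, with an interaction of -1.79 (adjusted p = 0.018). The other genes of this direction were Irgq (-1.34), the protease inhibitor Spint1 (-1.33), the motor Myo1e (-1.25), Mtss2 (-1.23), the receptor Gprc5a (-1.17) and Ccdc141, the last below 100 normalized counts. The effects in ESCs were close to the threshold, with adjusted p between 0.0121 (Ak4) and 0.0484 (Ccdc141) over the 20 genes. In all 8 fits without 1 library, all 20 genes kept opposite signs in the 2 states, and 14 of them kept a log2 change of at least 0.5 in both. Because the same libraries chose these genes, the kept signs are no independent evidence. As called, the count fell to between 0 and 1 without a library of ESC-WT, ESC-ΔZF1 or NPC-ΔZF1 and rose to 140 and 67 without NPC-WT replicates 1 and 2. At an unadjusted p below 0.05 it was between 79 and 192 in these fits.

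**Figure D3:**
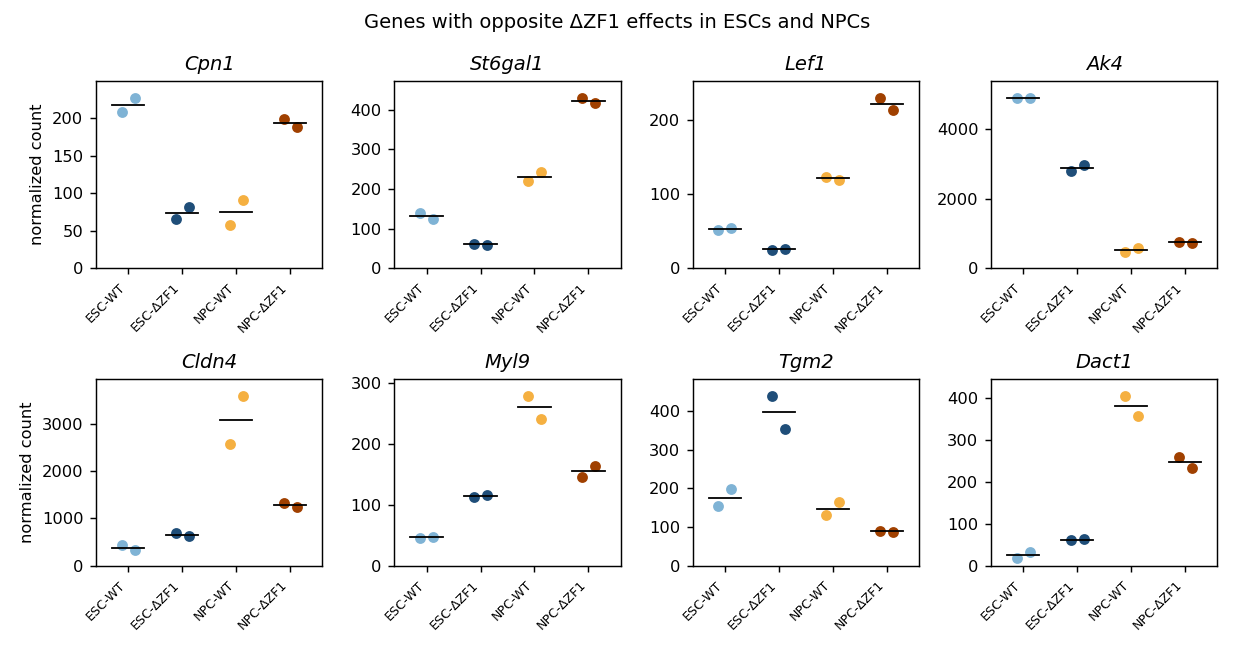
Normalized counts (linear axis from 0, own scale for each gene) of 8 genes with opposite ΔZF1 effects in each of the 8 libraries, with points for libraries and bars for the means of 2. Cpn1, St6gal1, Lef1 and Ak4 fell with ΔZF1 in ESCs and rose in NPCs, and Cldn4, Myl9, Tgm2 and Dact1 rose in ESCs and fell in NPCs. WT and ΔZF1 libraries did not overlap in either state, which the rule that named these genes required.

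None of the 50 genes called in ESCs only kept the call of its interaction in all 8 fits without 1 library. Of them, 29 rose more or fell less in ESCs and 21 did the reverse. For 39 of the 50 the estimated effects in the 2 states differed in sign. For 45 the NPC libraries of WT and ΔZF1 did not overlap, although no effect was called there. The share without overlap over all genes tested is not given here, so this count is no evidence of an effect in NPCs. Hoxa3, a patterning factor (chromosome 6, 52169062 to 52213336), had normalized counts of 18.9 and 15.0 in ESC-WT, 71.2 and 72.7 in ESC-ΔZF1, 168 and 174 in NPC-WT and 181 and 210.2 in NPC-ΔZF1. ESC-ΔZF1 lay above ESC-WT and the NPC levels of the 2 lines lay close together, with an effect of 2.14 in ESCs (adjusted p = 0.00786), 0.19 in NPCs with a 95% interval from -0.17 to 0.56, and an interaction of -1.95 (standard error 0.32, adjusted p = 0.0151). It was the only one of 31 Hox genes tested with a called interaction, although 6 of them rose in ESCs and 12 in NPCs. Over all genes tested, 3.61% were called in ESCs and 17.6% in NPCs, in either direction. Hoxa10 in the same cluster had 10.8 and 16.1 in ESC-WT, 229 and 202 in ESC-ΔZF1, 14.9 and 21.2 in NPC-WT and 108 and 111 in NPC-ΔZF1, and while its effects were 3.90 and 2.65, the interaction of -1.24 was not called (adjusted p = 0.156).

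Nr2f2, the nuclear receptor COUP-TFII (chromosome 7, 70351944 to 70366735), had 27.0 and 23.0 in ESC-WT, 57.0 and 70.3 in ESC-ΔZF1, 180.1 and 174 in NPC-WT and 122 and 136 in NPC-ΔZF1, an interaction of -1.85 (adjusted p = 0.0164). Adcy2, an adenylate cyclase (chromosome 13, 68620043 to 68999541), had 53.9 and 50.6 in ESC-WT, 167 and 133 in ESC-ΔZF1, 56.8 and 63.7 in NPC-WT and 33.6 and 41.5 in NPC-ΔZF1, an interaction of -2.20 (adjusted p = 0.0103). Like Hoxa3, both rose with ΔZF1 in ESCs, as did Acta2 (-1.62), an actin of smooth muscle, and Inka2 (-1.55). Unlike Hoxa3, these genes lay lower with ΔZF1 in NPCs, without a call. The NPC effects were -0.67 for Adcy2 (95% interval -1.19 to -0.15) and -0.46 for Nr2f2 (-0.85 to -0.08). They were -0.51 for Acta2 (-0.91 to -0.12) and -0.24 for Inka2 (-0.65 to 0.17). Of the genes whose fall was called in ESCs only, Vsir, an immune checkpoint receptor (chromosome 10, 60346851 to 60372684), had 243 and 206 in ESC-WT, 33.7 and 51.2 in ESC-ΔZF1, 238 and 261 in NPC-WT and 166 and 171 in NPC-ΔZF1, with effects of -2.37 in ESCs and -0.56 in NPCs (interaction 1.82, adjusted p = 0.0129). Its NPC libraries did not overlap either, and the fall there was just short of a call (adjusted p = 0.0506). Sh3bgrl on the X chromosome had 1523 and 1345 in ESC-WT, 418 and 482 in ESC-ΔZF1, 1764 and 918 in NPC-WT and 1248 and 1264 in NPC-ΔZF1, its NPC libraries overlapped between the lines, and it had an interaction of 1.56 (adjusted p = 0.0449). Tspan7, a tetraspanin also on the X chromosome, had 105 and 105 in ESC-WT, 33.7 and 32.2 in ESC-ΔZF1, 268 and 244 in NPC-WT and 237 and 223 in NPC-ΔZF1, and in NPCs its libraries of the 2 lines lay close together (interaction 1.51, adjusted p = 0.0156). En2, a homeobox factor of the midbrain, fell in ESCs (adjusted p = 0.0265) and had an effect of 0.59 in NPCs (95% interval 0.05 to 1.12, interaction 1.58). The metalloprotease Mep1b had effects of -1.06 in ESCs and 1.02 in NPCs (95% interval 0.09 to 1.95, interaction 2.08). In both genes the NPC libraries did not overlap and lay higher with ΔZF1, the opposite direction to ESCs, but this effect was not called.

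Of the genes called in both states with the same sign, Myo6, an actin motor (chromosome 9, 80165031 to 80311729), had 243 and 247 in ESC-WT, 391 and 366 in ESC-ΔZF1, 279 and 232 in NPC-WT and 1311 and 1221 in NPC-ΔZF1, so that the rise of 0.62 on the log2 scale in ESCs was 2.30 in NPCs (interaction 1.67, adjusted p = 0.00344). Prss35 (1.37) behaved alike. Klhdc7a rose more in ESCs (2.72) than in NPCs (1.01), and Osbpl7 (-1.20) and Smtnl2 (-1.08), both on chromosome 11, fell more in NPCs. Among genes called in neither state, the interactions of Gm1070 (1.34), Ppp1r16b (1.23), Gm17435 (1.22, annotated as antisense and counted without strand) and Scube3 (-0.97) were called.

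In the other lists the share of tested genes with a called interaction reached at most 22.2% (the cadherin switch list), against 2.7% of all genes tested. Among 30 glycolysis and hypoxia genes, 3 were higher, led by P4ha1, a collagen prolyl hydroxylase, with 531 and 530.3 in ESC-WT, 499 and 500.3 in ESC-ΔZF1, 503 and 444 in NPC-WT and 2141 and 2221 in NPC-ΔZF1 (interaction 2.29, adjusted p = 0.000226), and followed by Pdk1 (1.03) and Mif (0.82). Of 30 genes of cholesterol and fatty acid synthesis, 3 were higher (Scd2 by 1.01, Elovl6 by 0.89 and Cyp51 by 0.77). Of 27 genes of the cadherin switch and mesenchymal transition, 2 were higher, the intermediate filament Vim (1.72) and Cdh6 (2.45), and 4 were lower. Of 24 mesoderm genes, 3 were higher (Nkx1-2, 2.37, with Pdgfra and Fgf17), and of 23 germline genes, 2 were (Dazl, 2.04, and Mael, 1.15). Wnt targets had 2 of 21 (Lef1 and Ccnd1, 0.75), retinoic acid genes 1 of 16 (Crabp1, 1.08), and p53 targets 1 higher (Pmaip1) and 1 lower (Btg2) of 25. With edgeR, none of the 19 clustered protocadherins, 25 genes of CTCF and cohesin machinery and 5 histone genes tested was called. DESeq2 also called none of them, and at an unadjusted p below 0.05 the counts were 0, 2 and 0.

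**Figure D4:**
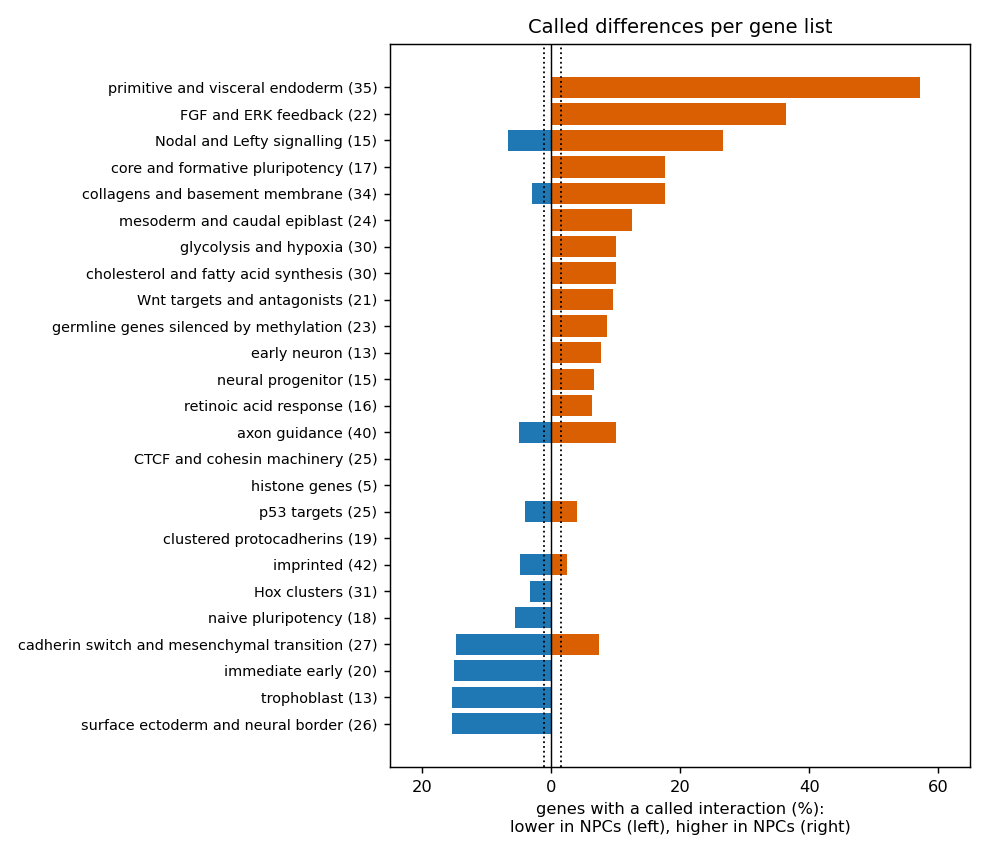
Share of the tested genes of each list (number in parentheses) with a called interaction, to the right where it was higher in NPCs and to the left where it was lower. Dotted lines mark the shares over all genes tested, 1.59% higher and 1.11% lower. The endoderm list reached 57.1% and the FGF list 36.4% to the right, and the surface ectoderm list 15.4% to the left.

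How the genes behave when E14 cells labelled WT differentiate was read from 6 further libraries, 3 of ESCs and 3 of NPCs, which played no part in the choice of the genes. From E14 ESCs to NPCs, 2186 of 13268 genes rose (16.5%) and 2165 fell (16.3%). Of the 253 genes with a higher interaction that were tested there, 138 rose (54.5%) and 26 fell, and of the 178 with a lower interaction, 30 rose and 81 fell (45.5%). The genes called in NPCs only had shares like these, with 111 of 206 rising (53.9%) where the interaction was higher and 62 of 129 falling (48.1%) where it was lower. Each of these shares lay above the 16.5% and 16.3% of all genes tested.

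Genes called in ESCs only gave 16 of 20 rising where the interaction was higher, and 9 of 24 falling where it was lower. For the genes with opposite effects, 5 of 10 rose in the first case and 4 of 10 fell in the second. No test of these shares was made. H19 was among the exceptions to this order, because it rose in E14 NPCs and was lower with ΔZF1. In E14 WT it had 0.604 ± 1.05 normalized counts in ESCs and 388 ± 90.3 in NPCs (SD, n = 3).

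**Figure D5:**
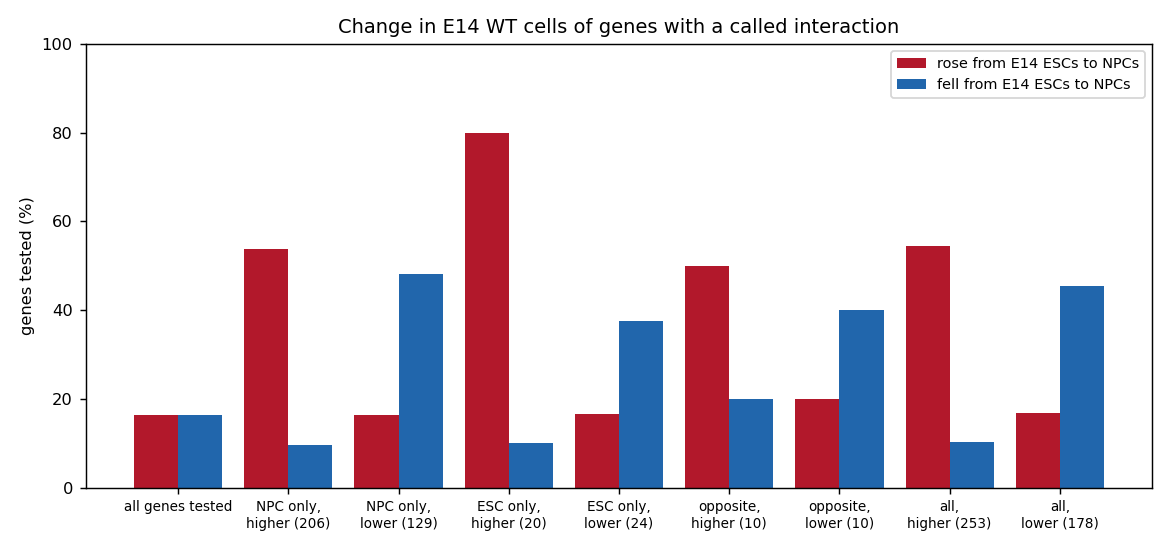
Share of genes (number tested in parentheses) that rose (red) or fell (blue) from E14 WT ESCs to E14 WT NPCs, for all genes tested and for genes with a called interaction by class and direction of the interaction. Of all genes tested, 16.5% rose and 16.3% fell, whereas 54.5% of genes with a higher interaction rose and 45.5% of those with a lower interaction fell.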

How the data were processed

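Total RNA of ESCs and NPCs was depleted of rRNA and sequenced as paired-end, strand-specific libraries. The authors aligned reads to mm10 with STAR, counted them per gene with featureCounts without regard to strand, and deposited raw counts. Versions and annotation were not given in the sources used here, and overlapping or antisense genes may share reads. A further 3 columns of the table belonged to none of the samples and were not used.

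The deposited counts of all 8 libraries were fitted with edgeR 4.0.16 in R 4.3.3 (filterByExpr, TMM, a mean per group, 4 residual degrees of freedom, quasi-likelihood F test, Benjamini-Hochberg adjustment over 16641 genes tested of 55291). The scripts were tested on simulated data. Named genes were the largest interactions whose normalized counts averaged 100 or more over all groups or those of 1 cell type, and with no overlap between WT and ΔZF1 libraries where an effect was called: in each direction up to 6 called in NPCs only, 5 in ESCs only, 10 opposite, 3 with the same sign and 3 in neither, together with H19, Igf2, Hoxa10, Lama1, Dlx3, Podxl, Grb10, Ctcf and up to 4 genes a list by adjusted p. Other genes were named after their values were seen, and some items that the rule selects are not reported here. The genes, the 25 lists and the tests were chosen with earlier results of these data known. Of the symbols in the table, 53292 (96.4%) matched GENCODE on GRCm38, which gave positions. Promoters came from RefSeq on GRCm38.p6.

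Alternatives were RLE scaling, other filters and thresholds, the replicate block, leaving out chromosome 11 or each library, thinning, DESeq2 1.42.0 with and without ashr 2.2.63, and separate fits per cell type. E14 libraries were fitted in their own table, together with the Podxl and Grb10 truncation lines.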

Additional observations from a re-analysis of the deposited data

Results flagged for a closer look

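The difference between cell states was tested directly, by the interaction term of edgeR's model, and it was called for 449 genes. The named genes and the genes of the lists with a called interaction are given here with the interaction on the log2 scale, NPC effect minus ESC effect of ΔZF1. No group held more than 3 libraries, and single libraries were not tested as outliers.

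Of the genes called in NPCs only, the interaction was positive for Tfec (4.76), Klb (4.01), Cubn (4.01), Dpp4 (3.85), Apob (3.59), Fgf15 (3.55), Dab2 (3.53), Lefty1 (3.50), Hnf4a (3.31), Lama1 (3.21), Foxa2 (3.21), Srgn (3.09), Sox17 (3.06), Gata6 (3.00), Gata4 (2.73), Lefty2 (2.70), Pdgfra (2.58), Lgmn (2.53), Cdh6 (2.45), Nkx1-2 (2.37), Amot (2.33), Spry4 (2.29), P4ha1 (2.29), Col4a1 (2.08), Dazl (2.04), Il17rd (2.02), Epha2 (1.89), Col4a2 (1.76), Vim (1.72), Lamb1 (1.68), Fgf17 (1.62), Dusp4 (1.50), Efna3 (1.29), Spry2 (1.23), Epha4 (1.21), Stmn2 (1.12), Crabp1 (1.08), Nodal (1.07), Pdk1 (1.03), Scd2 (1.01), Etv5 (0.98), Pmaip1 (0.97), Sox2 (0.90), Elovl6 (0.89), Nid2 (0.86), Mif (0.82), Grb10 (0.80), Cyp51 (0.77) and Ccnd1 (0.75). It was negative for H19 (-7.20), B3gnt3 (-2.67), Krt42 (-2.24), Epdr1 (-2.05), Lmna (-1.99), Myl4 (-1.98), Sema3b (-1.89), Sema6a (-1.49), Rhox6 (-1.48), Phlda2 (-1.24), Msx2 (-1.19), Dusp1 (-1.17), Gata2 (-1.13), Grhl3 (-1.04), Rhob (-1.01), Btg2 (-0.81) and Cdh1 (-0.70).

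Of those called in ESCs only, the interaction was positive for Mep1b (2.08), Vsir (1.82), En2 (1.58), Sh3bgrl (1.56), Tspan7 (1.51), Epha1 (1.40) and Mael (1.15). It was negative for Adcy2 (-2.20), Hoxa3 (-1.95), Nr2f2 (-1.85), Acta2 (-1.62), Inka2 (-1.55) and Ets2 (-0.89).

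Among genes with opposite effects, the interaction was positive for Cpn1 (2.99), St6gal1 (1.99), Lef1 (1.92), Clgn (1.52), Pls1 (1.38), Rbm47 (1.32) and Ak4 (1.26). It was negative for Cldn4 (-2.05), Myl9 (-2.03), Tgm2 (-1.85), Dact1 (-1.79), Irgq (-1.34), Spint1 (-1.33), Myo1e (-1.25), Mtss2 (-1.23) and Gprc5a (-1.17).

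Where both states moved the same way, the interaction was positive for Myo6 (1.67), Etv1 (1.43), Prss35 (1.37) and Lamc1 (1.17). It was negative for Klhdc7a (-1.71), Osbpl7 (-1.20) and Smtnl2 (-1.08).

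With an effect called in neither state, the interaction was positive for Gm1070 (1.34), Ppp1r16b (1.23) and Gm17435 (1.22). It was negative for Cldn3 (-1.98), Smad7 (-1.03), Scube3 (-0.97) and Tfcp2l1 (-0.67).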

How the results depend on the processing

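Counts below are of genes with a called interaction, then of those called in NPCs only, in ESCs only and with opposite effects, and then of genes with a ΔZF1 effect in ESCs and in NPCs, which were 449, 347, 50, 20, 601 and 2936. Without a filter on low counts, the first 5 were 1139, 788, 132, 59 and 1088. At an adjusted p of 0.01 all 6 were 74, 70, 2, 0, 52 and 1455. At a log2 threshold of 1, the last 5 were 213, 27, 4, 214 and 1208. Leaving out chromosome 11 gave 9 genes with opposite effects and 249 ESC effects, and thinning all libraries to the lowest depth gave 11 with opposite effects. DESeq2 called 680 interactions, and with ashr shrinkage 10 genes had opposite effects. Fits on the libraries of one cell type called 1601 ESC and 1222 NPC effects. Without 1 library each, the 6 counts ranged from 54 to 4673, from 53 to 3291, from 0 to 347, from 0 to 140, from 8 to 1750 and from 943 to 5870, and the highest values came without NPC-WT replicate 1. Positive interactions were 58.8% of those called as reported, 47.2% without the filter, 78.4% at an adjusted p of 0.01, 46.8% with DESeq2 and 46.1% with ashr. They were 72.4% to 92.1% without any 1 of the 6 libraries other than NPC-WT, and 51.4% and 47.8% without NPC-WT replicates 1 and 2. The share stayed within 10 percentage points of the reported share with RLE scaling. The cause of these shifts was not tested.

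Replicate numbers did not pair the libraries, since the differences between replicates correlated by -0.125 to 0.121 over the 6 pairs of groups. With the replicate block, 322 genes had a called interaction, of which 316 were among the 449, and 32 were called in ESCs only and 10 with opposite effects. The interactions of the genes named by rule and of the list members with a called interaction kept their sign under these settings, and other list members were not examined one by one. Most of these genes were chosen by a called interaction in the same libraries, so the kept signs are no independent evidence. The count of 4351 genes that changed in E14 WT stayed within 1.5 times, from 4020 to 4444 without 1 library. With 2 libraries per group, the spread within groups limits what could be called. The shallowest ESC library held 6425179 reads, and the part of its depth in the ESC calls was not tested.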

Other observations

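Outside the lists, the genes with the largest interactions included several that were too low to be named by rule. Pga5, which encodes a pepsinogen, had normalized counts of 5.39 and 8.05 in ESC-WT, 5.18 and 5.96 in ESC-ΔZF1, 5.23 and 7.58 in NPC-WT and 85.2 and 89.5 in NPC-ΔZF1, an interaction of 4.18 (edgeR adjusted p = 0.0156). Pla2g12b, which takes part in lipoprotein secretion, had 8.09 and 16.1 in ESC-WT, 5.18 and 3.57 in ESC-ΔZF1, 4.48 and 15.2 in NPC-WT and 45.4 and 45.4 in NPC-ΔZF1, with an effect of 2.41 on the log2 scale in NPCs and a called interaction (adjusted p = 0.0421). Both were chosen after their values were seen, and both were near the limit of detection in ESCs. Habp2 of the endoderm list had 8.09 and 2.3 in ESC-WT, 0 and 7.15 in ESC-ΔZF1, 9.72 and 7.58 in NPC-WT and 232 and 226 in NPC-ΔZF1, and although its interaction of 4.79 exceeded that of each called gene in size other than H19, it was not called (adjusted p = 0.102).

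The 17 tested genes of the mitochondrial genome had a median ΔZF1 effect of 0.64 on the log2 scale in NPCs and of -0.00329 in ESCs. The share of counts of mitochondrial genes was 2.01% in NPC-WT replicate 1, 0.580% in NPC-WT replicate 2, and 1.78% and 1.97% in NPC-ΔZF1. The part of NPC-WT replicate 2 in the NPC effect was not tested.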
